A study of Rattus norvegicus with 4 samples.

Results

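The comparison described here sets liver from Lewis rats given control stem cells after partial hepatectomy (PH) against liver from Lewis rats given saline after the same operation. Its members are all genes of the deposited expression table that passed a filter on low levels, 9690 of 31457 genes, in 2 of the 4 libraries of the series. Each gene's value is the log2 value of the library labelled PH-ASCs-siRNC minus that of the library labelled PH-Saline. All 4 libraries come from liver of the Lewis strain (allotype RT1L). The first is labelled a naive control, and the other 3 come from hepatectomised rats that received saline, ASCs-siRNC or ASCs-miR27b by the intravenous route. The labels do not spell out ASCs, read here as adipose-derived stem cells, or siRNC, read here as a control RNA. The sources used here do not give the number of animals per library, the donor of the cells, the age of the rats, the time after surgery or the hour of collection. The livers are called naive, saline, siRNC and miR-27b below, and 4 values in a row stand in that order.

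After part of the liver is removed, the remaining hepatocytes keep up glucose output, lipid export and protein secretion while they enter the cell cycle. Their lipid synthesis is governed by the SREBP transcription factors. SREBP-2 drives cholesterol synthesis when sterols are scarce, and SREBP-1c drives fatty acid synthesis in response to insulin. The circadian clock runs in the same cells: CLOCK, NPAS2 and ARNTL (BMAL1) switch on the period and cryptochrome genes, whose products repress them in turn. Stem cells from adipose tissue are given for the factors they release, and a share of them lodge in lung and liver.

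The table holds log2 values of normalized reads relative to a baseline of each gene, so values compare libraries within a gene and not genes with each other. A single library stood for each group, so no difference below has a replicate check and no test of the treatment was possible; a gene is called higher or lower where the 2 libraries were at least 2-fold apart. In bulk tissue, fewer cells of a type and less RNA per cell cannot be told apart. Reads per gene and library could be recovered for 945 of the 9690 genes, and for these a 95% interval of the log2 difference is given, which covers counting error only. The size factors of the saline and siRNC libraries, inferred from the values, were 1.039 and 1.005. The median difference over all genes was -0.01, and 49.1% of genes were above 0. The middle 50% of genes lay between -0.23 and 0.23, and 85.1% of genes were less than 1.5-fold apart. The siRNC liver was at least 2-fold higher for 230 genes (2.37%) and at least 2-fold lower for 183 genes (1.89%), and these shares are the background against which the counts of each gene group are read. For named genes that were under 2-fold or over 1.5 times smaller in fold when 5 reads were added to every library, the log2 difference with that addition is also given. For genes without recovered reads it was computed at the lowest level that the rounding of their values allowed. Among the 945 genes with recovered reads the shares were 3.6% higher and 3.49% lower. Hepatocyte genes were present at like levels on both sides: 16 of 16 hepatocyte plasma protein genes were kept, none was 2-fold apart, and albumin (Alb) differed by -0.03.

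In the siRNC liver, 9 of 21 cholesterol synthesis genes and 9 of 18 fatty acid synthesis genes were higher than in the saline liver, the clock repressors Per1, Per2, Per3 and Cry1 were higher while the clock activators Arntl and Npas2 were lower, and a small set of matrix genes led by Postn, Thbs1, Lum and Col1a1 was higher. Of these matrix genes, Postn, Thbs1 and Lum passed the filter mainly through the siRNC library. Among the clock repressors Nfil3 was lower. The glucose output genes G6pc and Pck1, the phosphatidate phosphatase Lpin1, adrenomedullin (Adm) and the cell cycle genes Cdk1, Cdkn1a and Ccnd1 were lower. The G1 and mitosis lists had medians of -0.09 and -0.13. Most other gene groups had medians close to 0.

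**Figure D1:**
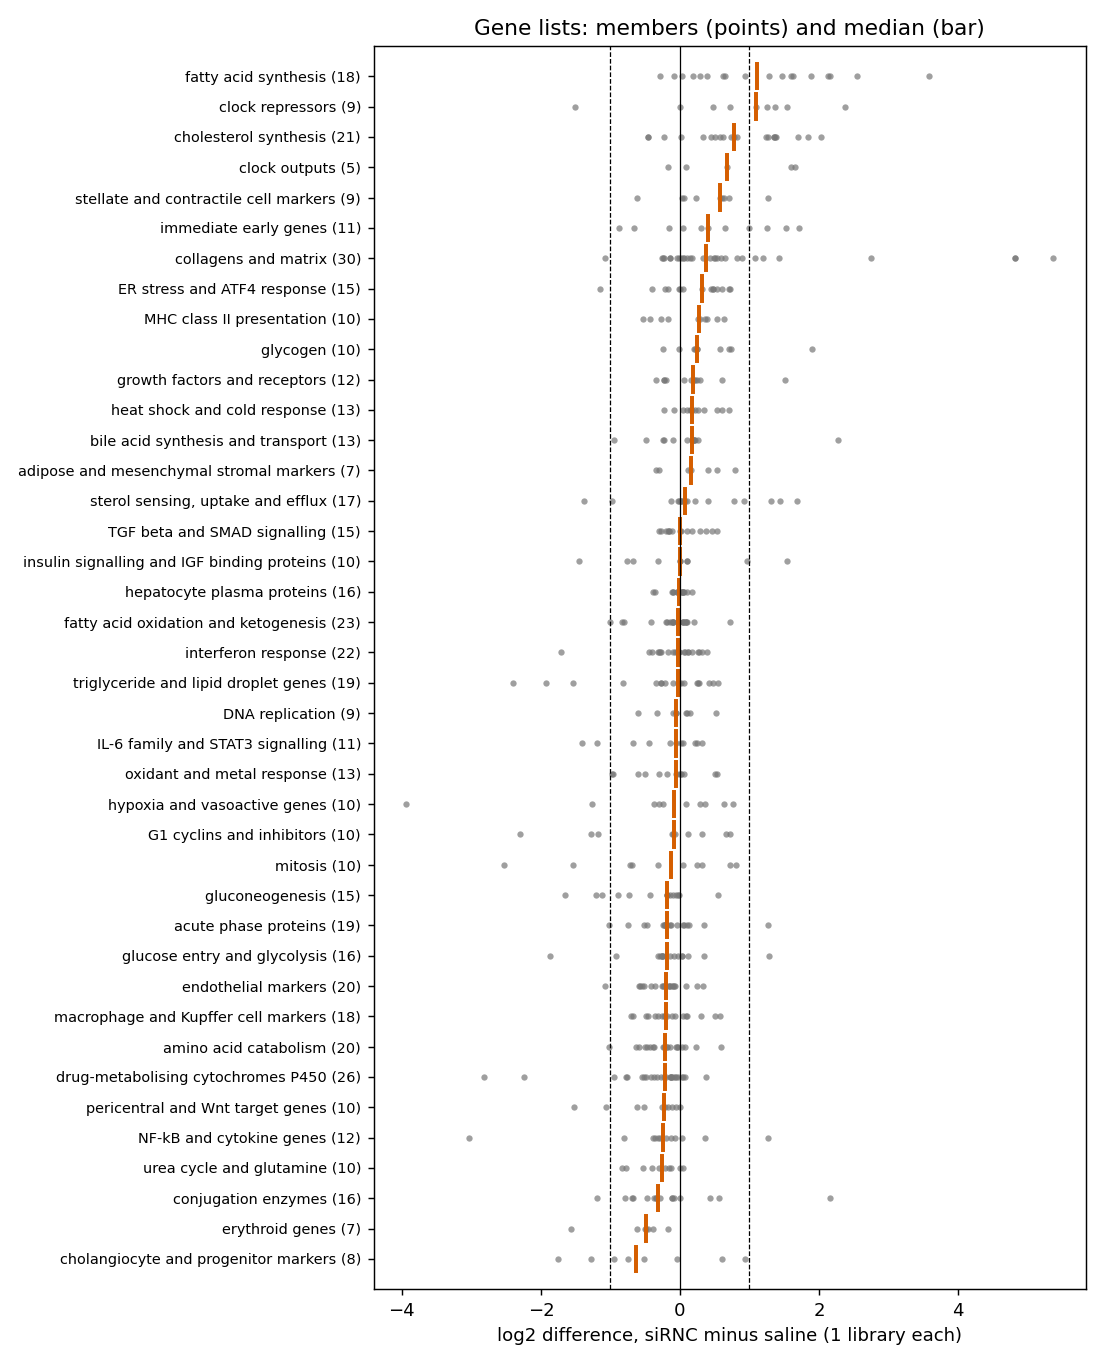
The log2 difference of the siRNC minus the saline library (x axis) is plotted for every kept member (points) of the 40 gene lists with at least 5 kept members (rows, with the number kept), ordered by list median (orange bars); dashed lines mark 2-fold. Fatty acid synthesis (median 1.11), clock repressors (1.09) and cholesterol synthesis (0.77) stand at the top, and most lists centre near 0.

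Promoter sequences of 4 of these genes are shown first, each holding a match to a motif counted below. They are examples and do not stand for their groups. TTATGTAA was in 1 of 8 and CACGTG in 2 of 8 clock repressor promoters, and CCAAT was in 39.6% of all promoters. The mevalonate pathway gene Hmgcs1 and the sterol demethylation gene Msmo1 were among the highest cholesterol synthesis members with a promoter entry. Per2 and Bhlhe40 were among the clock repressors that were higher. The sequences are RefSeq promoters of the rat build GRCr8 (250 bases before to 50 after the gene's start), written 5′ to 3′ on the gene's strand: Hmgcs1 at chr2:53382054-53382353 on the plus strand, Msmo1 at chr16:29746863-29747162 on the plus strand, Per2 at chr9:99496944-99497243 on the minus strand and Bhlhe40 at chr4:143174200-143174499 on the plus strand. Capitals mark CCAAT or its reverse complement ATTGG in the 2 lipid genes, TTATGTAA in Per2 and CACGTG in Bhlhe40.
Hmgcs1: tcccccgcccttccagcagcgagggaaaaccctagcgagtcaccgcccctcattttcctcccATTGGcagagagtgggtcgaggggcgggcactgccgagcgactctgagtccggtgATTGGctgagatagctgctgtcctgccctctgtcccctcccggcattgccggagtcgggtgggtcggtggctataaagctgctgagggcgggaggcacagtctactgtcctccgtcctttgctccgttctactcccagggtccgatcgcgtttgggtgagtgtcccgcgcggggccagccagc
Msmo1: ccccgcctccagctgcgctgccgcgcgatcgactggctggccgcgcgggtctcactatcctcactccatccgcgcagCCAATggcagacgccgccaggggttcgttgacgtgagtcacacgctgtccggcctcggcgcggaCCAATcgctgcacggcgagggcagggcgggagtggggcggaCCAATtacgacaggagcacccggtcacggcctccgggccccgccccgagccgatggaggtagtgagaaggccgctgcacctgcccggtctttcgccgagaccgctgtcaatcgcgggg
Per2: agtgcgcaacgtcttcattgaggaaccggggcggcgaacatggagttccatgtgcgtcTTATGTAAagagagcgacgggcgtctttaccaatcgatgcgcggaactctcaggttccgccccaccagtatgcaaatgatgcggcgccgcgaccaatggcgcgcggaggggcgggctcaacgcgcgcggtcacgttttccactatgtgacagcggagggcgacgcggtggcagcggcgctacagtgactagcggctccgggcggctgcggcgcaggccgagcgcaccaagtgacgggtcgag
Bhlhe40: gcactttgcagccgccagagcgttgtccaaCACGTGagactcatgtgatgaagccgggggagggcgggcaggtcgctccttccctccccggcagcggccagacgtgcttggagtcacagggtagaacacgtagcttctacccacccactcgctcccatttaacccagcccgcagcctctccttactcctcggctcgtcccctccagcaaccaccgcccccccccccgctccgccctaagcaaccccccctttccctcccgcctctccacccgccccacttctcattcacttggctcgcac

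Promoters were searched on both strands for 4 motifs: the sterol regulatory element TCACNCCAC, the CCAAT box of NF-Y, the E-box CACGTG and the D-box TTATGTAA. A CCAAT box was found in 12 of the 15 cholesterol synthesis genes with an entry (80%), in 10 of 14 fatty acid synthesis genes (71.4%) and in 39.6% of all 27457 promoters of the same length. It was also found in 8 of 12 gluconeogenesis genes (66.7%). The TCACNCCAC letters were in none of these 15 and 14 promoters and in 1.25% of all promoters. CACGTG was in 2 of 8 clock repressor promoters (Nr1d1 and Bhlhe40), in 1 of 3 clock output promoters (Tef), in none of 3 clock activator promoters and in 7.08% of all. It was also in 3 of 11 promoters of the sterol sensing, uptake and efflux list (27.3%). TTATGTAA was in 1 of 8 clock repressor promoters (Per2) and in 0.958% of all. A match is a description of these windows only.

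Cholesterol synthesis opened the list of higher groups. All 21 listed enzymes were kept; 9 were at least 2-fold higher in the siRNC liver, none was 2-fold lower, 18 were above 0, and the median difference was 0.77. Hmgcs1, an early enzyme of the mevalonate pathway, had log2 values of 0.30 in naive, -1.24 in saline, 0.46 in siRNC and -1.04 in miR-27b liver (3.25-fold between siRNC and saline). Here the siRNC and naive livers were alike and the saline and miR-27b livers were low. Msmo1, an enzyme that removes methyl groups from sterols, was at 0.00, -0.31, 1.53 and -0.08 in the same order (3.58-fold), and here the siRNC liver stood alone at the top.

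Other enzymes of the pathway were higher by smaller folds. Acat2, which joins acetyl units, was 2.60-fold higher, and Idi1, the isomerase of the isoprenoid unit, was 2.35-fold higher (0.95 with 5 reads added). Mvd, the decarboxylase of mevalonate diphosphate, had recovered reads: 63 in naive, 58 in saline, 144 in siRNC and 73.8 in miR-27b liver. Its log2 difference of 1.36 had a counting interval of 0.91 to 1.83, and the siRNC library was well above the other 3. Sqle and Lss, which make and cyclise squalene epoxide, were higher by 1.37 and 1.27 (Lss 0.94 with 5 reads added), and Hsd17b7, a late sterol reductase, by 1.36. Fdft1 (0.74), Fdps (0.77), Cyp51 (0.82) and Dhcr7 (0.61) were higher by less than 2-fold. Ebp, Ggps1 and Tm7sf2 were slightly lower, at -0.23, -0.46 and -0.46. The siRNC library was the highest of the 4 for 15 of the 21 enzymes, against 21.3% of all kept genes, and the saline library was the lowest for 12, against 21.8%.

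Genes that sense, take up and export sterols held few calls: of 17 kept members 3 were 2-fold higher and 1 was 2-fold lower, with a median of 0.07. Insig1, which retains the SREBP complex in the endoplasmic reticulum, was 2.47-fold higher (0.00 in naive, -0.45 in saline, 0.86 in siRNC and 1.54 in miR-27b liver), and here the miR-27b liver was higher still. Insig2, its relative, went the other way: 1.60 in naive, 0.53 in saline, -0.85 in siRNC and -0.16 in miR-27b liver, 2.60-fold lower in siRNC than in saline. The sterol exporter Abcg5 lay just inside 2-fold, with 120.1 reads in saline and 59 in siRNC (difference -0.98, interval -1.45 to -0.52). Srebf2, the gene of SREBP-2 itself, differed by 0.22 and its escort Scap by -0.02.

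Of 18 fatty acid synthesis genes, all kept, 9 were at least 2-fold higher and none was 2-fold lower, with a median of 1.11. The median was 0.65 among the 13 members in a stricter set with more reads. Srebf1, which encodes SREBP-1, was at 0.67 in naive, -1.45 in saline, 0.72 in siRNC and 0.00 in miR-27b liver (4.47-fold). Fasn, fatty acid synthase, was at -0.29, -1.28, 0.85 and 0.64 in that order (4.38-fold). Pnpla3, a lipid droplet lipase and SREBP-1c target, was at 0.00, -1.82, 1.76 and 1.29 (12-fold, and a log2 difference of 2.23 with 5 reads added). In all 3 genes the saline liver was the lowest and the siRNC liver the highest of the 4.

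The supply of acetyl-CoA and the regulation of its carboxylase pointed the same way. Acly, which makes cytosolic acetyl-CoA from citrate, was 3.03-fold higher, and Acacb, an acetyl-CoA carboxylase, was 2.44-fold higher (0.93 with 5 reads added), whereas the main lipogenic carboxylase gene Acaca differed by 0.28. Mid1ip1, an activator of the carboxylase, was at 0.53 in naive, -1.86 in saline, 0.68 in siRNC and -0.68 in miR-27b liver (5.82-fold), and its relative Thrsp (Spot 14) was 3.09-fold higher. The elongase Elovl6 was 3.67-fold higher and the desaturase Fads1 1.91-fold higher. Aacs, which activates acetoacetate for lipid synthesis, had 20 reads in naive, 19 in saline, 51 in siRNC and 9 in miR-27b liver, a difference of 1.47 with an interval of 0.69 to 2.31. Not every lipogenic gene followed: the desaturase Scd1 differed by 0.18, the malic enzyme Me1 by -0.28 and the carbohydrate-responsive factor Mlxipl (ChREBP) by 0.03.

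**Figure D2:**
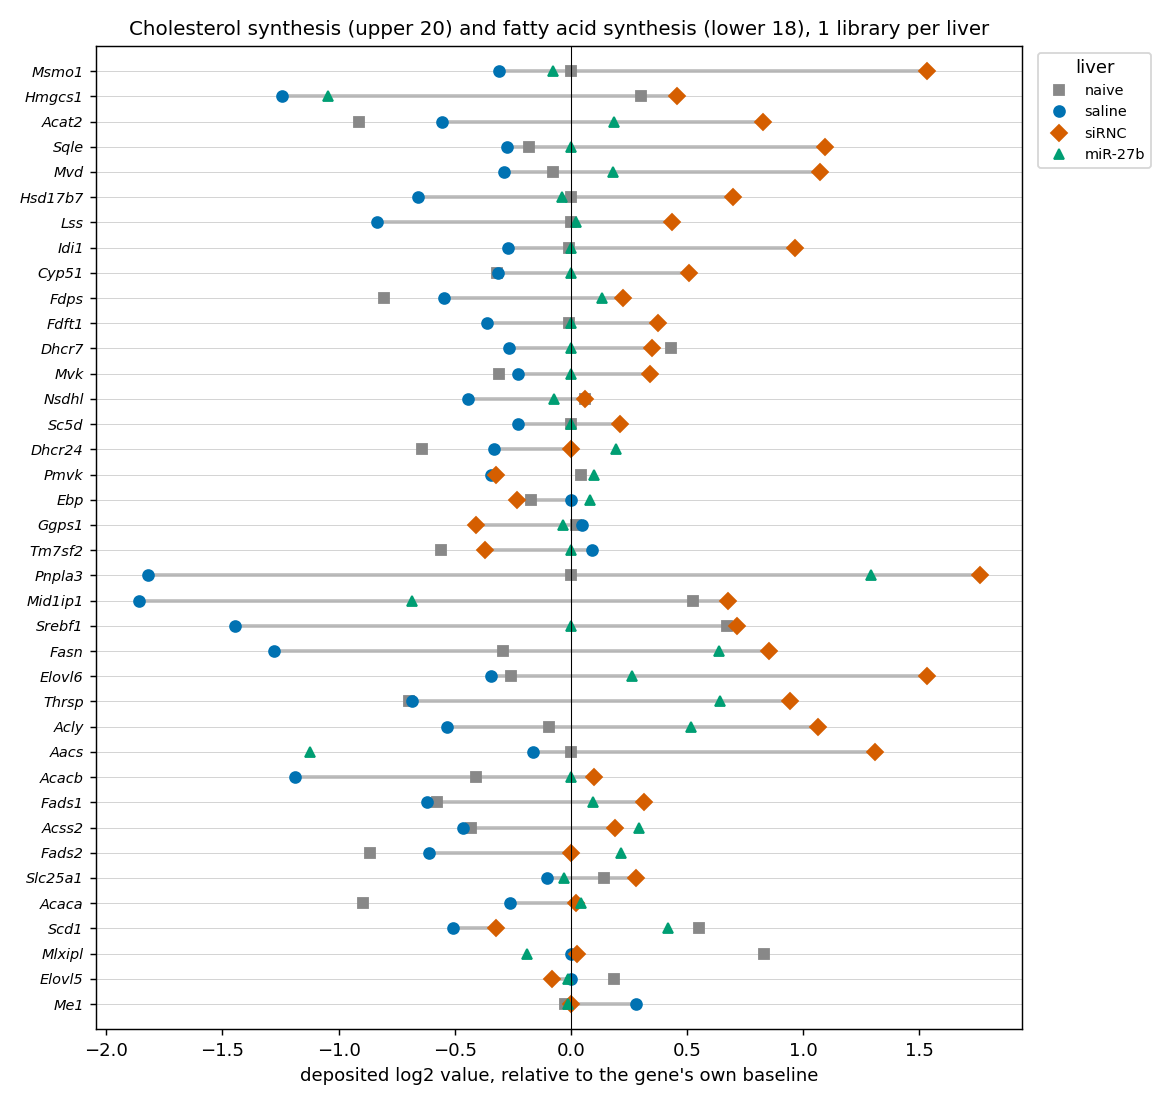
Deposited log2 values (x axis, relative to each gene's baseline) of 20 cholesterol synthesis genes (upper) and 18 fatty acid synthesis genes (lower) in naive, saline, siRNC and miR-27b liver; grey bars join saline and siRNC, and each block is sorted by that difference. The siRNC library is the highest of the 4 for 14 of the upper and 11 of the lower genes, and the saline library the lowest for 12 and 11.

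Genes that store and break down triglyceride did not share this direction: of 19 kept members none was 2-fold higher and 3 were 2-fold lower, with a median of -0.03. Lpin1, a phosphatidate phosphatase that also acts with PPAR coactivators, was at 0.00 in naive, 2.38 in saline, -0.02 in siRNC and 2.38 in miR-27b liver, 5.27-fold lower in siRNC than in saline. The siRNC and naive livers were thus alike, and the saline and miR-27b livers were alike. Angptl4, a fasting-induced inhibitor of lipoprotein lipase, was 3.79-fold lower (-1.06 with 5 reads added), and Pnpla2, the adipose triglyceride lipase, 2.90-fold lower (-0.23, 0.80, -0.74 and 0.60 in naive, saline, siRNC and miR-27b liver). Of 23 kept genes of fatty acid oxidation and ketogenesis, the pyruvate dehydrogenase kinase gene Pdk4 lay at the 2-fold limit and was inside it with 5 reads added (-0.98) or with all genes centred on their median, and the list's median was -0.02.

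Of 15 gluconeogenesis genes, all kept, 3 were at least 2-fold lower, none was 2-fold higher and 1 was above 0, with a median of -0.18. G6pc, the catalytic subunit of glucose-6-phosphatase, was at 0.54 in naive, -0.48 in saline, -2.14 in siRNC and 0.07 in miR-27b liver (3.15-fold lower in siRNC than in saline). Pck1, the cytosolic PEP carboxykinase, was at 0.00, 0.25, -0.87 and 0.43 (2.18-fold lower), and the aminotransferase Got1 was 2.31-fold lower. For G6pc and Pck1 the siRNC liver was the lowest of the 4. The coactivator Ppargc1a was lower by less than 2-fold (-0.73), as was the serine dehydratase Sds (-0.89).

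Entry of glucose into the cell gave 1 call in each direction among 16 kept genes. Hk2, a hexokinase that is scarce in normal liver, was at -2.34 in naive, 1.49 in saline, -0.39 in siRNC and 2.13 in miR-27b liver (3.66-fold lower). The siRNC liver lay between the naive and saline livers. Ppp1r3b, which targets protein phosphatase 1 to glycogen, was 3.72-fold higher (1.5 in naive, -1.14 in saline, 0.75 in siRNC and -1.13 in miR-27b liver), the only call among 10 kept glycogen genes. In the list of insulin signalling and IGF binding proteins, Pik3r1, a regulatory subunit of PI3-kinase, was 2.90-fold higher and Igfbp1, which insulin represses, 2.73-fold lower (-1.04, 0.83, -0.62 and 1.88), out of 10 kept. With 5 reads added Igfbp1 differed by -0.98.

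The 3 kept clock activators were below 0, and 7 of 9 kept clock repressors were above 0. For each of the 3 activators kept, the siRNC liver was the lowest and the naive liver the highest of the 4. Over all kept genes these shares were 22.2% and 32.4%. Arntl was at 1.07 in naive, 0.00 in saline, -2.13 in siRNC and 0.15 in miR-27b liver (4.38-fold lower in siRNC than in saline, and -1.23 with 5 reads added). Npas2 had 195.3, 86.4, 28 and 110 reads in that order, a difference of -1.58 with an interval of -2.24 to -0.94. Clock differed by -0.48.

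Of 9 kept clock repressors 5 were at least 2-fold higher and 1 was 2-fold lower, with a median of 1.09. Per2 had 27.5 reads in naive, 24 in saline, 120 in siRNC and 8 in miR-27b liver, a difference of 2.37 with an interval of 1.73 to 3.07; the siRNC library was far above the other 3. Per3 was at -3.96, 0.03, 1.57 and -1.86 in that order (2.90-fold higher than in saline), and Per1 was 2.57-fold higher. Cry1 (2.14-fold) and Bhlhe40 (2.39-fold), a repressor that binds E-boxes, were higher as well, while the naive liver had the top value for both. The nuclear receptor repressors Nr1d1 and Nr1d2 (REV-ERB alpha and beta) differed by 0.00 and 0.48. Nfil3, which competes with DBP at D-boxes, was 2.86-fold lower (0.00, 0.21, -1.30 and 0.40).

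Among 5 kept clock outputs, 2 were 2-fold higher and the median was 0.67. Only 1 of the 5, Nampt (-0.18), was in the stricter set. Dbp, the D-box activator, was at -5.13 in naive, 0.00 in saline, 1.59 in siRNC and -1.59 in miR-27b liver (3.01-fold higher than in saline), and Usp2, a ubiquitin protease under clock control, was 3.16-fold higher. The naive and siRNC livers lay at the ends of the Dbp range. Wee1 had 36 reads in saline and 37 in siRNC. Clock genes vary through the day in every liver. The sources used here give no hour at which each liver was taken, and its part in these differences was not tested.

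**Figure D3:**
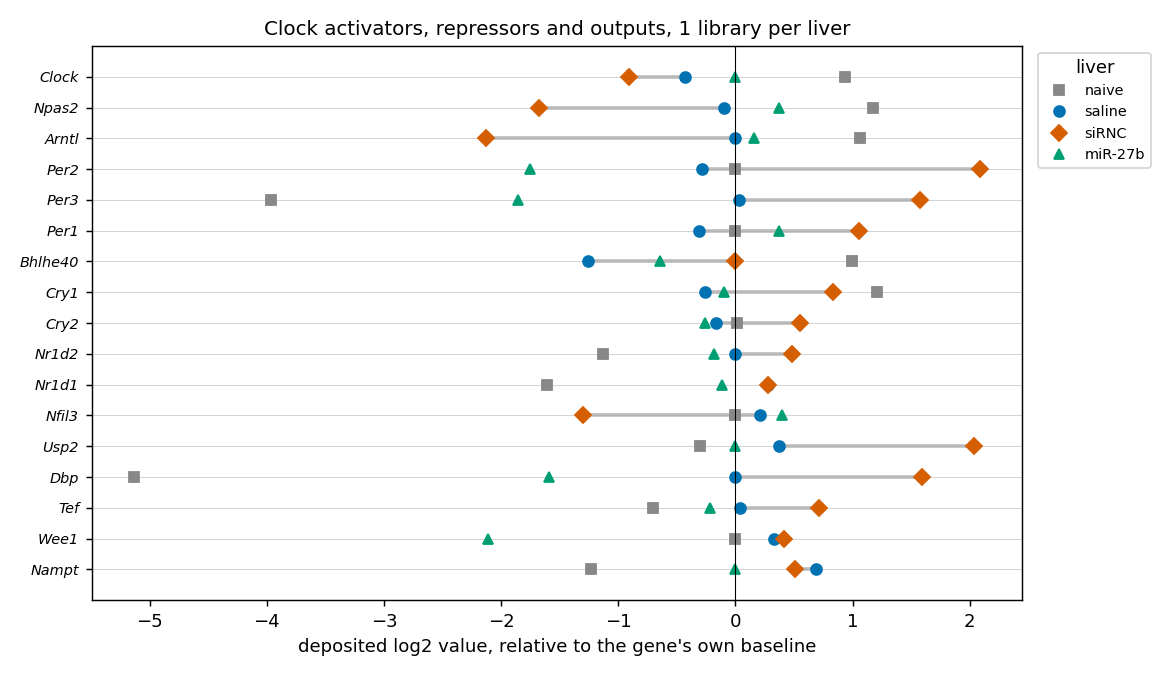
Deposited log2 values (x axis, relative to each gene's baseline) of the 3 kept clock activators (top), 9 repressors (middle) and 5 outputs (bottom) in the 4 livers; grey bars join saline and siRNC. The siRNC library is the lowest for all 3 activators and the highest for 5 of the repressors and 4 of the outputs.

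Matrix genes held the largest differences of the listed genes in the siRNC direction. Of 30 kept genes 7 were at least 2-fold higher and 1 was 2-fold lower, with a median of 0.38. Among the 13 members in the stricter set, only Col1a2 (1.42) and Thbs2 (1.20) were 2-fold higher, and Eln (-1.09) was 2-fold lower. The others of that set lay between -0.25 (Timp3) and 0.65 (Col3a1). Postn, a matrix protein of activated fibroblasts, had 41.5 reads in the siRNC library and 1 in the miR-27b library, and the naive and saline libraries were at the floor of 1 normalized read. With 3 reads set for saline in place of the floor, it was 14.3-fold higher than in saline. This takes the siRNC reads as exact and leaves out their counting error. Thbs1, thrombospondin 1, had 6 reads in naive, 28.5 in siRNC and 9 in miR-27b liver and was at the floor in saline. Computed in the same way, it was 9.81-fold higher. The filter uses the mean of the 4 libraries, so these genes passed it through the siRNC library alone or nearly so. Both count among the 7 higher genes. The list median of 0.38 does not depend on their exact folds, but it does depend on their being in the list. The count and the median are therefore not independent of how these genes passed the filter. With 5 reads added the differences were 2.95 for Postn and 2.47 for Thbs1.

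Lum, a collagen-binding proteoglycan, was at -0.03 in naive, -0.54 in saline, 4.29 in siRNC and 0.00 in miR-27b liver, a 28.3-fold difference for which no read numbers were recovered. With 5 reads added it was 3.13, and this gene too passed the filter mainly through the siRNC library. Col1a1 was at -2, -0.25, 2.5 and 0.00 (6.75-fold, and 2.12 with 5 reads added) and Col1a2, the other chain of type I collagen, at -0.83, -0.25, 1.17 and 0.14 (2.67-fold). In these 3 genes the siRNC liver stood above the other 3. Thbs2 had 29, 32, 71 and 87.2 reads in the naive, saline, siRNC and miR-27b libraries (difference 1.20, interval 0.58 to 1.85), so the miR-27b liver was at least as high, and Dcn was 2.12-fold higher (0.86 with 5 reads added). Other kept collagens were less than 2-fold apart: Col3a1 (0.65), Col6a2 (0.58), Col5a2 (0.51), Col5a1 (0.32), Col6a1 (0.14), Col4a1 (0.10), Col14a1 (-0.01) and Col4a2 (-0.26). Col6a3 was below the filter. Eln, elastin, was 2.12-fold lower. The siRNC library was the highest of the 4 for 12 of 30 matrix genes and the miR-27b library for 14, against 21.3% and 24.9% of all kept genes. The 12 include Postn, Thbs1 and Lum.

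**Figure D4:**
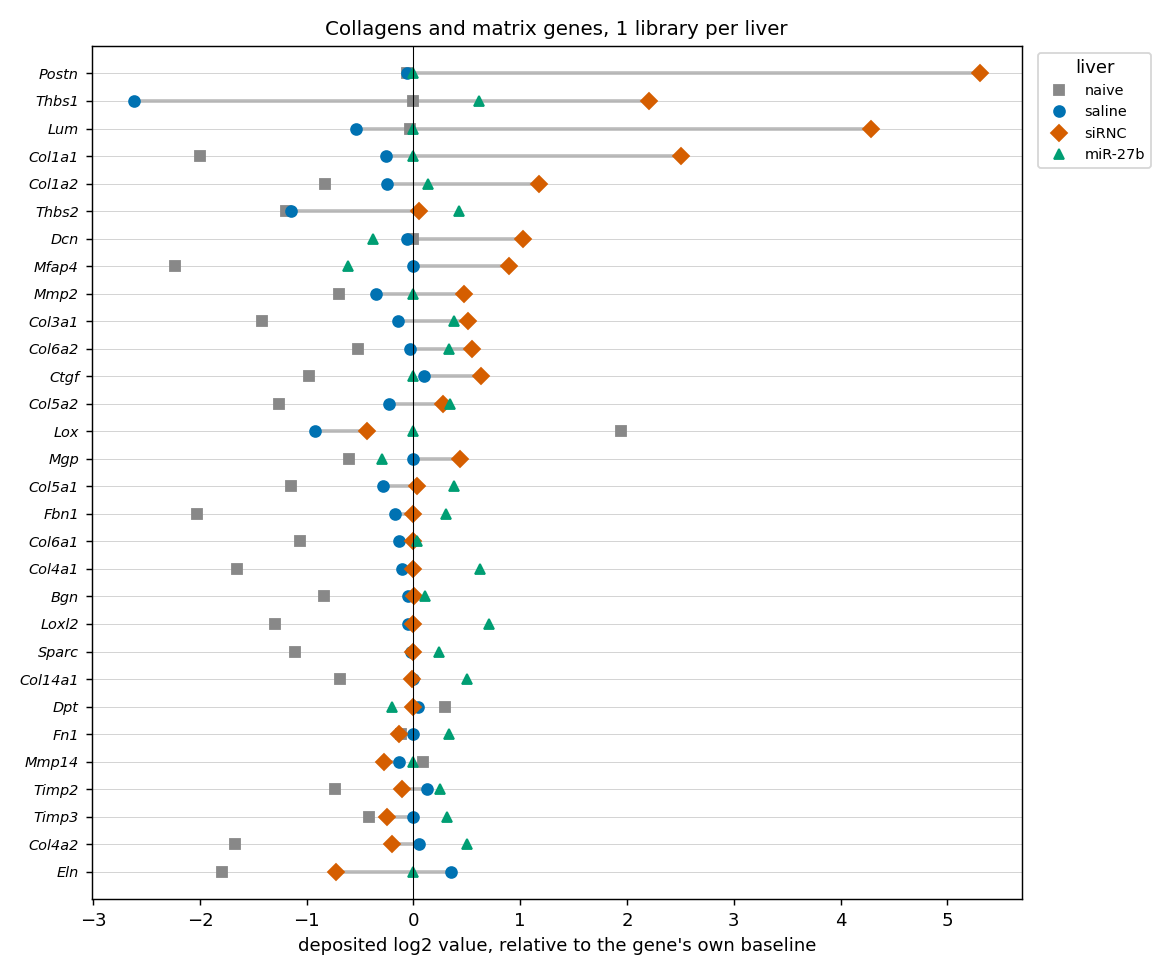
Deposited log2 values (x axis, relative to each gene's baseline) of the 30 kept collagen and matrix genes in the 4 livers, sorted by the siRNC minus saline difference (grey bars); Postn and Thbs1 were at the floor in saline, so their bars show no exact fold. The 7 genes at the top are at least 2-fold higher in siRNC. The naive library is the lowest for 22 of the 30, against 29.9% of all kept genes.

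Of 9 kept stellate and contractile cell markers 1 was 2-fold higher, 8 were above 0 and the median was 0.57. Acta2, smooth muscle actin, had 12 reads in naive, 22 in saline, 51.2 in siRNC and 89 in miR-27b liver (difference 1.27, interval 0.51 to 2.05). The miR-27b library was the highest of the 4 for all 9 markers, against 24.9% of all kept genes. Lrat, an enzyme of vitamin A storage, differed by 0.63, Pdgfrb by 0.05 and Pdgfra by -0.61. Of 15 listed adipose and mesenchymal stromal markers 7 were kept, none was 2-fold apart and their median was 0.16; Adipoq, Lep and Plin1 were listed at 0 in all libraries, and Pparg, Thy1, Cd34, Prrx1 and Twist1 were below the filter. A listing at 0 can be a failed estimate, as the ubiquitous chaperone gene Hspa8 is also listed at 0. The part of other cells in the matrix genes was not tested. In the TGF beta and SMAD list no member of 15 kept was 2-fold apart, and Tgfb1 differed by -0.12.

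All calls among cell cycle genes of G1 and mitosis were lower, but the list medians were close to 0. The G1 list had a median of -0.09, with 4 members above and 6 below 0. The mitosis list had a median of -0.13, with 5 above and 5 below 0. Of 10 kept G1 genes 3 were 2-fold lower: Ccnd1, cyclin D1, was at 0.79 in naive, 0.06 in saline, -1.22 in siRNC and -1.71 in miR-27b liver (2.42-fold), Ccne1, cyclin E1, was 2.25-fold lower (-0.95 with 5 reads added), and Cdkn1a, the inhibitor p21, was at 0.64, 0.00, -2.30 and 0.49 (4.92-fold, and -1.33 with 5 reads added). A cyclin and an inhibitor of cyclin-dependent kinases thus lay on the same side. Of 10 kept mitosis genes 2 were 2-fold lower: Cdk1 was at 1.71 in naive, 0.00 in saline, -2.53 in siRNC and 1.39 in miR-27b liver (5.77-fold), and Ccnb1 was 2.90-fold lower. With 5 reads added Cdk1 differed by -1.10 and Ccnb1 by -0.74, which left 1 of the 2 calls. The naive liver was the highest of the 4 for all 10, against 32.4% of all kept genes. Mki67 differed by -0.71 and Top2a by 0.24, 5 further mitosis genes were listed at 0 and 8 were below the filter, so mitosis was measured at low depth. None of 9 kept DNA replication genes was 2-fold apart; Pcna differed by -0.61 and Mcm4 had 43 and 46 reads in the saline and siRNC libraries.

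Immediate early genes, which respond within minutes to growth factors and stress, had 3 of 11 kept members at least 2-fold higher and a median of 0.41. Dusp1, a phosphatase of MAP kinases, was at 2.27 in naive, -1.53 in saline, 0.00 in siRNC and -0.57 in miR-27b liver (2.88-fold), and Jun was at 0.00, -0.94, 0.32 and -0.59 (2.39-fold, and 0.94 with 5 reads added). Atf3 had 11, 6, 19 and 9 reads (difference 1.71, interval 0.33 to 3.32). For these genes the saline liver was the lowest of the 4. Egr1 differed by 0.30 and Junb by 0.05. Growth factor genes were close, with Hgf at 0.21 and Met, its receptor, at 0.16, and 1 of 12 kept members, the activin subunit gene Inhba, was 2.85-fold higher (0.97 with 5 reads added).

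Inflammatory genes held few calls, in both directions. In the IL-6 family and STAT3 list 2 of 11 kept members were 2-fold lower: Socs3, the feedback inhibitor, at -2.01 in naive, 0.05 in saline, -1.15 in siRNC and 0.70 in miR-27b liver (2.29-fold), and Bcl3 at -0.51, 1.05, -0.36 and 1.98 (2.65-fold). In both genes the siRNC liver lay between the naive and saline livers. Il6 was listed at 0. Cxcl1, a neutrophil-attracting chemokine, was at -1.88, 2.11, -0.93 and 5.76 (8.22-fold lower in siRNC than in saline, and -0.80 with 5 reads added, which ends the call), and Il1a had 115, 53, 123 and 106 reads (difference 1.26, interval 0.79 to 1.76). Among 19 acute phase proteins A2m was 2.42-fold higher and Lcn2 2.02-fold lower, with a median of -0.19. With 5 reads added neither was called (0.91 and -0.46). Gbp5, an interferon-induced GTPase, had 24, 64, 19 and 37 reads (difference -1.70, interval -2.53 to -0.95), the only call among 22 kept interferon genes.

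Marker genes of resident blood and vessel cells gave few calls. None of 18 kept macrophage and Kupffer cell markers was 2-fold apart (median -0.20; Cd163 -0.70, Clec4f -0.35), and none of 10 MHC class II genes was (median 0.27). Of 20 kept endothelial markers 17 were below 0, with a median of -0.19, and Vwf was 2.11-fold lower (-0.80 with 5 reads added). Of 8 kept cholangiocyte and progenitor markers 2 were 2-fold lower, Spp1 (2.42-fold, and -0.96 with 5 reads added) and Krt19, which had 5, 21, 6 and 15 reads in the naive, saline, siRNC and miR-27b libraries (difference -1.76, interval -3.36 to -0.40). Their median of -0.63 was 0.039 among the 4 members in the stricter set. All 7 kept erythroid genes were below 0, with a median of -0.49, and the globin gene Hbq1 was 2.97-fold lower. A single neutrophil marker was kept (S100a9, higher by 1.17, and by 0.80 with 5 reads added), 1 of the T and NK cell markers (Cd4, 0.05) and none of the B and plasma cell markers.

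Bile acid and drug metabolism held a few large differences, and most of the P450 and conjugation genes were below 0. Cyp7a1, whose enzyme sets the rate at which cholesterol becomes bile acid, was at -1.90 in naive, -1.50 in saline, 0.78 in siRNC and 0.12 in miR-27b liver (4.85-fold higher than in saline), the only call among 13 kept bile acid genes; Cyp8b1 differed by 0.21. Of 26 kept drug-metabolising cytochromes P450, 2 were 2-fold lower and 4 were above 0, with a median of -0.22. Cyp2c24 had 3, 178.9, 24.5 and 67 reads (difference -2.82, interval -3.46 to -2.18), and Cyp2b2 was at 0.00, 1.80, -0.44 and 0.64 (4.71-fold lower). Reads of these families can be shared between near-identical copies, so their values are uncertain. Sult2a1, a sulfotransferase of steroids and bile acids, was at -0.98, -1.30, 0.86 and 0.00 (4.47-fold higher). Gstm3 was 2.29-fold lower (-0.89 with 5 reads added). Both were among 16 kept conjugation enzymes, of which 4 were above 0 and 12 below, with a median of -0.31.

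Other groups with calls or none are given briefly. In the hypoxia and vasoactive list 2 of 10 kept genes were lower: Egln1, an oxygen sensor (2.39-fold, and -0.99 with 5 reads added), and Adm, the vasodilator adrenomedullin. Adm had 5, 15.9 and 23.9 reads in the naive, saline and miR-27b libraries and was at the floor in siRNC. With 3 reads set for siRNC and the saline reads taken as exact, it was 5.14-fold lower than in saline (-1.76 with 5 reads added). No urea cycle gene of 10 was 2-fold apart, with 2 above 0 and a median of -0.25. Among 20 amino acid catabolism genes Tdo2, which opens the tryptophan ring, was 2.03-fold lower. Trib3 was 2.22-fold lower (-0.91 with 5 reads added) among 15 kept ER stress genes (median 0.32), and none of 13 oxidant and metal genes was 2-fold apart, with Hmox1 at 0.02. Heat shock genes had no call, but 11 of 13 were above 0 (median 0.17). The siRNC library was the highest of the 4 for 8 of them, against 21.3% of all kept genes. Among 10 kept pericentral and Wnt target genes Tbx3 (2.88-fold) and Rhbg (2.09-fold) were lower (-0.92 and -0.81 with 5 reads added), and Glul differed by 0.00.

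A stricter set of 3395 genes, with a mean of at least 50 reads or a high level by the rounding of their values, held 68 genes at least 2-fold higher (2%) and 45 lower (1.33%). Its top end named several genes already described: Mid1ip1, Cyp7a1, Sult2a1, Srebf1, Fasn, Ppp1r3b, Msmo1 and Hmgcs1. The others were Zfp518b (2.75), Sgk2 (2.03), Bcl6 (1.97), Tfrc (1.95), Hsd17b2 (1.76) and Ppp2r3a (1.75). Bcl6, a repressor of transcription, was at 2.70 in naive, -1.97 in saline, 0.00 in siRNC and 0.68 in miR-27b liver. Tfrc, the transferrin receptor, was at 0.00, -1.06, 0.89 and 1.05 in that order. In both genes the saline liver was the lowest.

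At the low end of the stricter set stood Cyp2c24, Lpin1, Cyp2b2, G6pc, Npas2 and Bcl3 from the lists above. Zbtb16, a zinc finger repressor, was at 0.00 in naive, 0.88 in saline, -1.55 in siRNC and 2.2 in miR-27b liver (5.39-fold lower). Fkbp5, a chaperone cofactor of steroid receptors that glucocorticoids induce, was at -0.45, 1.34, -0.20 and 1.43 (2.90-fold lower). In both genes the saline and miR-27b livers were above the siRNC liver. Tmem25 had 77, 108, 32.3 and 28 reads in the naive, saline, siRNC and miR-27b libraries. The remaining genes were Adcy1 (-2.19), Pla2g12a (-1.87), Ca1 (-1.69), Ddr1 (-1.69), Ccdc146 (-1.68) and Eogt (-1.42).

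**Figure D5:**
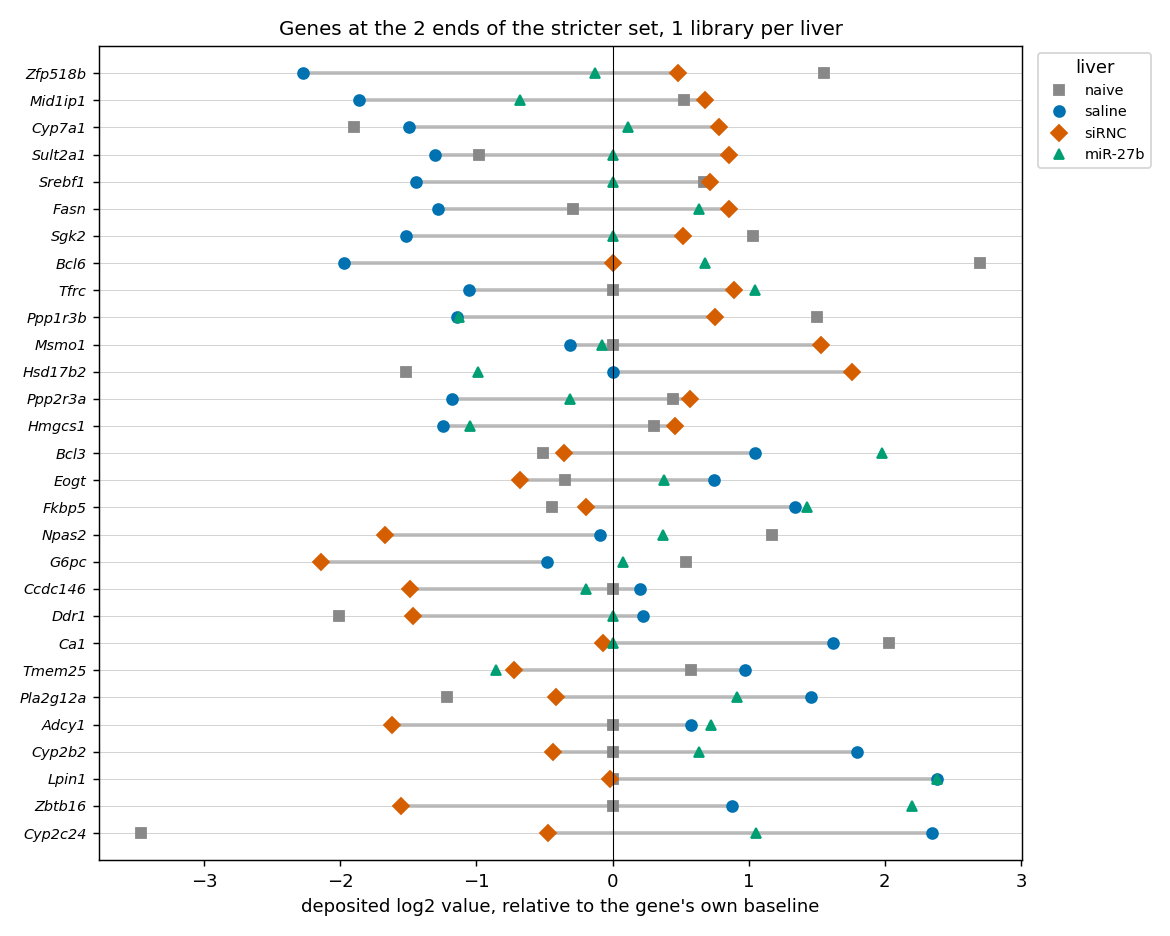
Deposited log2 values (x axis, relative to each gene's baseline) of 14 genes at the high end and 15 at the low end of the siRNC minus saline difference in the stricter set, in the 4 livers; grey bars join saline and siRNC. Msmo1 stands apart in siRNC alone, while Lpin1 and Fkbp5 are alike in saline and miR-27b and lower in siRNC.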

How the data were processed

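Poly(A)-selected RNA from Lewis rat liver, in 4 TruSeq libraries, was read on a MiSeq instrument, per the labels' protocols. The submitters' processing notes name DESeq and the build rn5, and the file header a RefSeq gene list; the sources used here name no aligner or counter. The deposited values are log2 values that the authors normalized. From the values, each is the log2 of reads scaled by a size factor, with a floor of 1 normalized read, less the gene's own baseline. That baseline equalled a library in 77.3% of the 12874 genes with a value, and 18583 further rows were at 0 throughout. Groups follow the source labels, 1 library each.

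The log2 difference, siRNC minus saline, was computed with no pseudocount. Reads were recovered for 2918 genes (22.7%) by searching up to 200 reads in steps of 1 per 101, with a posterior above 0.9; 66.4% of recovered values were whole (within 0.001 read). Other genes were placed by the binary rounding of their values. Kept were 945 genes averaging 10 normalized reads or more and 8745 others, nearly all in the class of at least 16. On simulated tables of 2993 genes, 94.1% of the recovered genes with a mean of at least 10 reads were right within 5%. Of the unrecovered genes at 50 to 256 reads, 15.7% were put in the class of 256 or more. Adm met the rounding rule for that class despite its few recovered reads, so genes with fewer reads can be misplaced as well. Reads rounded to whole numbers gave exact conditional binomial (Clopper-Pearson) 95% intervals; PCR copies are not independent molecules. The counting SD of a difference is 0.51 at 16 reads and 0.13 at 256. The sequencing depth of the libraries was not used here.

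The 44 gene lists and the members were chosen with earlier results of these data known, and the read search and level rules were adjusted after the files were seen. Genes named were the 15 highest and 15 lowest of the stricter set (LOC and RGD names left out), all list members 2-fold apart with up to 4 more per list in list order, and 9 fixed genes (Alb, Afp, Mki67, Ccnd1, Hgf, Il6, Tgfb1, Hmox1 and Ppargc1a), 262 in all. Some are left out for length, some are not reported here though counts include them, and others among the lists' members are named after their values were seen to show its spread. Promoters came from RefSeq (GRCr8), matched by gene ID. Python 3.11.15, numpy 2.4.6, pandas 2.3.3, scipy 1.17.1 and matplotlib 3.10.9 were used.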

Additional observations from a re-analysis of the deposited data

How the results depend on the processing

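Counts of genes depended on the filter and on a pseudocount. With no filter 614 genes were higher and 518 lower, with the stricter filter 68 and 45, with only genes of recovered reads 34 and 33, and with a pseudocount of 5 reads 137 and 98; centring on the median left 230 and 179 of the called genes. With the stricter filter the members at least 2-fold apart were 4 in cholesterol synthesis, 5 in fatty acid synthesis, 2 among clock repressors, 0 among clock outputs, 1 among immediate early genes, 1 among G1 genes and 0 among cholangiocyte markers. With only recovered reads they were 1 in cholesterol synthesis, 1 in fatty acid synthesis, 1 among clock repressors, 0 among clock outputs, 1 among immediate early genes and 1 among cholangiocyte markers, as fewer members were tested. Cholangiocyte markers had 5 with no filter and 1 with the pseudocount. Among matrix genes the stricter filter left Col1a2 and Thbs2 higher and Eln lower. With the stricter filter the median of cholangiocyte markers turned to 0.039 (4 members), and clock outputs were left with 1 gene, Nampt, at -0.18. Of 186 list medians recomputed, 154 moved little, 30 moved and 2 changed sign, those of cholangiocyte markers and clock outputs with the stricter filter. With the pseudocount 18 of the 262 named genes moved. Of 100 named genes at least 2-fold apart, 22 were under 2-fold with the pseudocount. Of the called genes with a counting interval, it left out 0 for 26 of 32 higher and 27 of 31 lower genes, and lay wholly past 2-fold for 1 and 3 of them. No paired analysis was possible because each group holds 1 library, which also leaves no library to leave out.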
